A study of Mus musculus with 6 samples.

Results

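The enzymes of heme biosynthesis were examined in skull roof bone (calvaria) of mice at postnatal day 10. The members were Alas1, Alas2, Alad, Uros, Urod, Cpox, Ppox and Fech, 8 of the 18193 genes that the array's annotation names with a single symbol. They were selected by name, and every probe set annotated to 1 of these symbols alone was taken, which gave 19 probe sets.

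The groups were 13del-tg transgenic mice, labelled as mutants with bone overgrowth, and wild type littermates as controls, both of that age. Parietal bones were embedded, cryosectioned whole and extracted with TRIZOL, so each array holds RNA of bone, marrow, adjoining muscle and any other tissue in the sections. The promoter that drives the transgene, the sex of the mice and any pooling of animals are not given in the sources used here. GEO's labels list 3 biological replicates per group, but the values under replicate 1 were identical in both groups at 45101 of 45101 probe sets. The labels therefore settle no genotype for that array, and its values are given apart as the shared array. All comparisons set 13del-tg replicates 2 and 3 against control replicates 2 and 3. Signals are the authors' MAS5 intensities on a linear scale, and each difference is log2(signal + 16) in 13del-tg minus control, with its standard error (SE) from limma. In all, 27022 probe sets passed a filter on low values, among them 16 of the members' 19, and p-values were adjusted over these 27022 by Benjamini-Hochberg with a threshold of 0.05.

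As a check of the labels, Col10a1, the collagen X gene in which the 13del deletion is known to lie, had signals of 15688.7 and 11584.4 in the 13del-tg arrays, against 149.8 and 158.2 in the controls and 152.2 on the shared array. At this gene the shared array thus stood with the controls, although it is also deposited as 13del-tg. The osteoblast collagen gene Col1a2 had signals from 45884 to 63207 over the compared arrays and 34134.7 on the shared array, high as is usual for bone. Over all kept probe sets the median difference was -0.07, and it was 0.11 when every array was centred on its median, so small differences depend on the scaling.

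Heme is an iron-holding ring carried by hemoglobin and by many enzymes. Its synthesis starts in the mitochondrion, where an aminolevulinate synthase joins glycine to succinyl-CoA, moves to the cytosol for the building of the ring, and ends in the mitochondrion, where iron is inserted. The first enzyme exists in separate forms: Alas1 is made in nearly all cells and is repressed by heme, whereas Alas2 lies on the X chromosome and is made in erythroid cells, where the transcription factors GATA1 and KLF1 act on heme and globin genes. The later enzymes are shared by all cells and are made in large amounts in erythroid precursors, which the marrow of young bone holds.

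Promoter sequence is shown for the members with the largest negative differences in a probe set, Alas2 and Cpox, and for those whose brightest probe sets differed least, Alas1 and Urod. Each line gives the 250 bases before an annotated start, 5′ to 3′ on the gene's strand, from RefSeq on GRCm38.p6. Capitals mark matches on either strand to a GATA form (AGATAA or AGATAG or TGATAA or TGATAG), to CACCC, the kind of letters KLF1 is known to bind, or to GCATGCGC, the core letters of the NRF1 motif. The regions are chrX:150547167-150547416 (plus strand) for Alas2, chr16:58669958-58670207 (plus strand) for Cpox, chr9:106247955-106248204 (minus strand) for Alas1 and chr4:116994414-116994663 (minus strand) for Urod.
Alas2: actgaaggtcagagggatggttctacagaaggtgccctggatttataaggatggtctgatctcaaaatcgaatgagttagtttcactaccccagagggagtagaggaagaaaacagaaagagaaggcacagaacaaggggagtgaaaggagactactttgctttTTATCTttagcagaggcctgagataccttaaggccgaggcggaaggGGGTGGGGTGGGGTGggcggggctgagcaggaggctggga
Cpox: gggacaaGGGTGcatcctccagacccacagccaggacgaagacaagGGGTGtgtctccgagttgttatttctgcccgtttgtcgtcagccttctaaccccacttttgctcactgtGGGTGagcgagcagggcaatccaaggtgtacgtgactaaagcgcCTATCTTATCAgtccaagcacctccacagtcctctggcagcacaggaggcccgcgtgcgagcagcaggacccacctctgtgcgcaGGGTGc
Alas1: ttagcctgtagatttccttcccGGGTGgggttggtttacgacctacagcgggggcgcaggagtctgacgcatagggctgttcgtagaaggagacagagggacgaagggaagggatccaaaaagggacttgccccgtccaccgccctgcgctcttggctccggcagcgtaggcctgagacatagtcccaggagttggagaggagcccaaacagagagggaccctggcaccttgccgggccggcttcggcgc
Urod: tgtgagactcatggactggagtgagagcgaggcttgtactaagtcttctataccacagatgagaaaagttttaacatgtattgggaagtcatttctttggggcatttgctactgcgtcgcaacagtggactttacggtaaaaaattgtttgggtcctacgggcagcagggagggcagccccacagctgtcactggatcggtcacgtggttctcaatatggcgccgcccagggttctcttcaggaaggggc

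The Alas2 window held 1 GATA form, 86 bases before the start, and CACCC 3 times, at 40, 35 and 30 bases before it. In the Cpox window 2 overlapping GATA forms lay 91 and 86 bases before the start, with CACCC at 4 places. The Alas1 window held CACCC once and no GATA form, and the Urod window held none of the motifs. A second annotated start of Alas1 had CACCC once and 2 overlapping matches to the NRF1 core before it. Over the 10 windows annotated for 7 members, 3 held a GATA form, 5 held CACCC and 1 held the NRF1 core. Of all annotated windows of this length, 26.5% held a GATA form, 52.0% CACCC and 2.26% the NRF1 core, so the first 2 motifs were about as common among the members as elsewhere. These matches describe letters and say nothing of binding.

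Alas2, the erythroid synthase and the member with the largest difference among the brightest probe sets, had signals of 2237.5 and 1907.3 in the 13del-tg arrays, against 6083.2 and 7403.5 in the controls. Both 13del-tg arrays lay well below both controls, and the shared array, at 4203.3, lay between the groups. The group means were 2072 ± 233 in 13del-tg calvaria and 6743 ± 934 in controls (SD, n = 2 each), and the difference was -1.69 (SE 0.20, 95% interval -2.16 to -1.22), or 3.23-fold lower in 13del-tg. Over all kept probe sets the adjusted p was 0.0771 (limma), short of the threshold, although only 101 of them (0.374%) had a more negative difference. The call rests on single arrays and on the variance model: without control 2 the difference was -1.83 with an adjusted p of 0.0107, and with limma's robust variance estimate the adjusted p was 0.0285, whereas it was 0.359 without control 3 and 0.578 without the variance trend. With the shared array added to either or both groups it was 0.576 or more. In whole-bone RNA, fewer erythroid cells and less Alas2 RNA per cell cannot be told apart.

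Alas1, the synthase of nearly all cells, showed no such separation. At its brighter probe set (1424126_at) the signals were 1199.7 and 746.7 in 13del-tg, against 1421.4 and 819.1 in the controls. The groups overlapped, the replicate 2 arrays were the higher ones in both groups, and the shared array stood above all of them at 2144.5. The difference was -0.19 (SE 0.34, 95% interval -0.96 to 0.59; limma adjusted p = 0.950). It turned to 0.21 without control 2 and to 0.15 without 13del-tg 3. The dimmer probe set (1455282_x_at, whose suffix marks probes that also match other sequences) had 257.6 and 103.6 in 13del-tg, against 190.0 and 72.2 in the controls and 277.9 on the shared array. Here too the shared array was highest and the replicate 2 arrays came next, but 13del-tg lay above the control of the same number, with a difference of 0.42 (SE 0.55; limma adjusted p = 0.927). The intervals of both probe sets are wide, so a moderate difference in either direction is not excluded by these arrays.

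Signals of different probe sets cannot be read as relative levels, but their ratio can be compared between arrays. The log2 signal of Alas2 minus that of Alas1 was 0.89 and 1.33 in the 13del-tg arrays, against 2.09 and 3.15 in the controls, and 0.97 on the shared array. The ratio was thus lower in both 13del-tg arrays than in either control, by 1.51 on average on the log2 scale or 2.84-fold, and the shared array lay within the 13del-tg range. Counted as a control, the shared array would make the groups overlap. By an exact permutation test over the 4 arrays, two-sided, p was 0.33, which is as small as 2 arrays against 2 allow. Without control 3 the gap was -0.97. The arrays thus give an order of the ratios, and do not show that Alas1 was constant.

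Some other genes also had higher signals in the replicate 2 array of each group than in the replicate 3 array, as both Alas1 probe sets did. The share of all probe sets with this order was not counted. Ppargc1a is a coactivator known to raise Alas1 transcription, and its kept probe sets disagreed in the sign of the difference. At the brightest one its signals were 217.9 and 104.6 in 13del-tg, against 190.4 and 82.5 in the controls and 613.7 on the shared array. The mitochondrial enzyme gene Cs had 9689.9 and 7304.4 in 13del-tg, against 8330.0 and 4485.5 in the controls and 10971.2 on the shared array. Summed signals of 8 skeletal muscle genes were 176594 and 137275 in 13del-tg, against 133558 and 24928 in the controls and 159039 on the shared array, with control 3 far below the others. The median difference of these 8 muscle genes was 1.61, with 7 positive, but 0.23 without control 3 and 2.90 without control 2. In limma 3 of them reached an unadjusted p under 0.05 on the higher side, against 1.42% over all kept probe sets, and none passed after adjustment. Nr1d1, listed with Ppargc1a among the regulators of Alas1, had the opposite order. Its signals were 765.0 and 1630.5 in 13del-tg, against 418.1 and 871.1 in the controls and 305.8 on the shared array. The muscle list was added, and Ppargc1a and Cs picked, after values had been seen. The part of these genes in the Alas1 values was not tested.

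**Figure D1:**
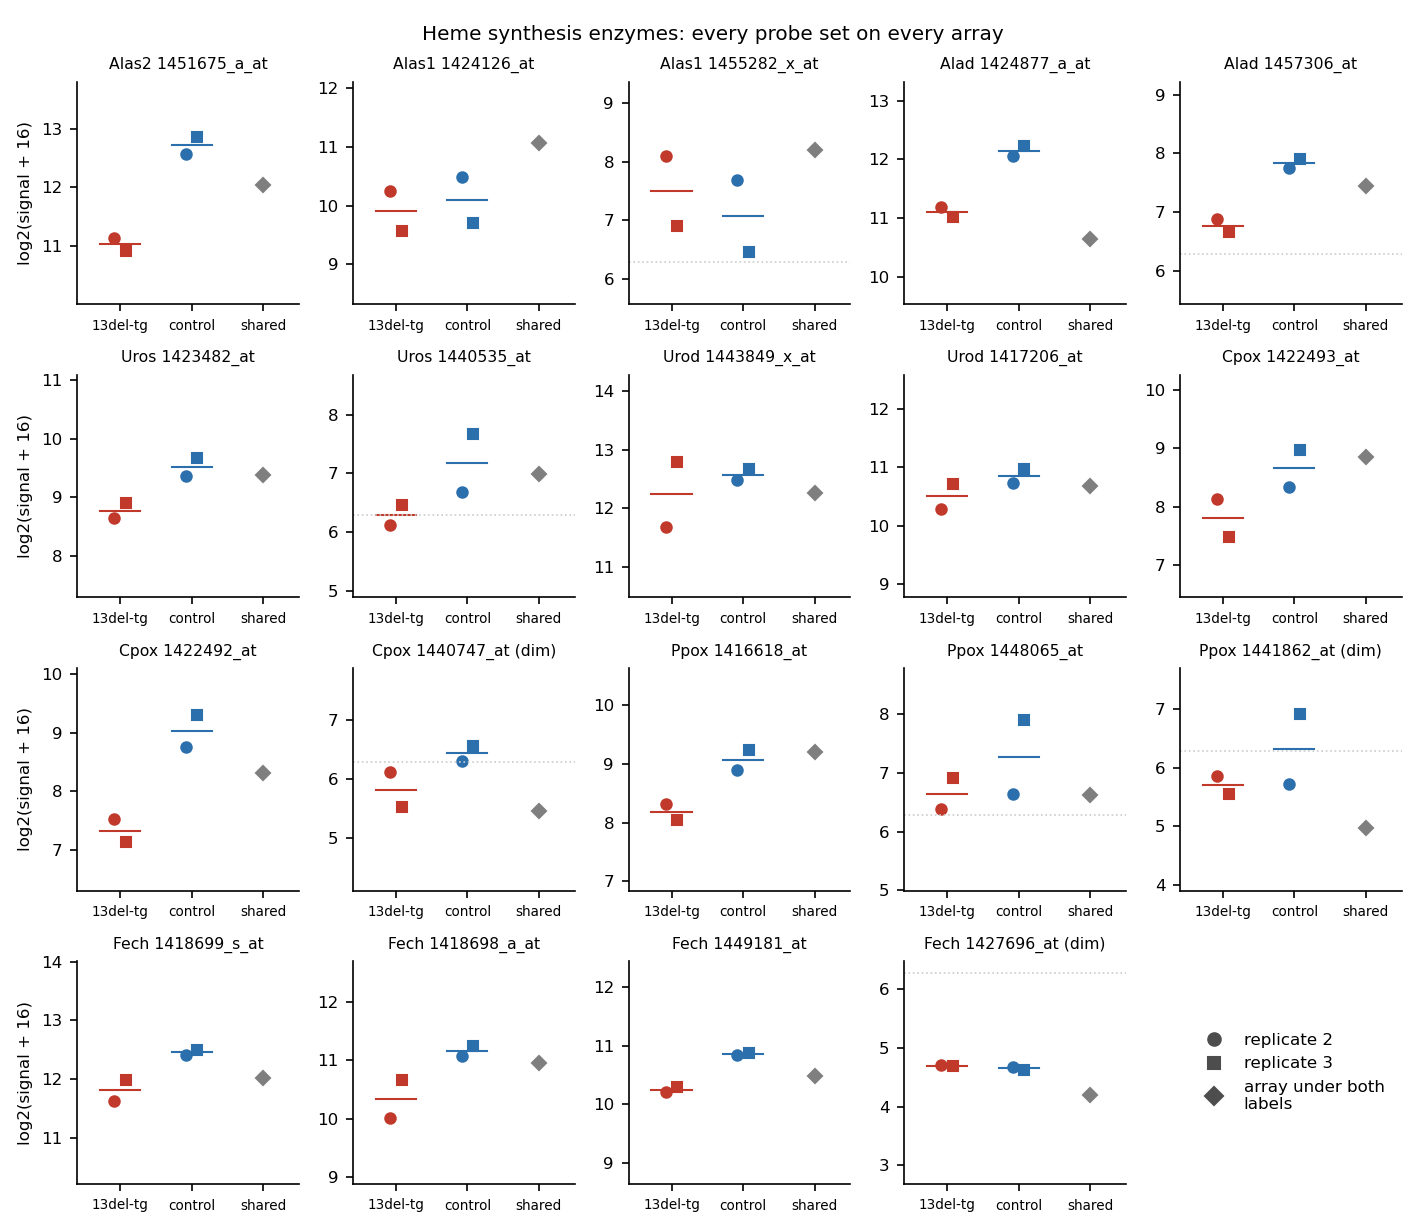
Log2(signal + 16) of each of the 19 heme enzyme probe sets, with the 13del-tg arrays (red) left of the controls (blue) and the shared array (grey) apart; circles are replicate 2, squares replicate 3, bars the group means, the dotted line the filter on low values, and the axes differ in offset but not in span. Alas2 shows 2237.5 and 1907.3 in 13del-tg below 6083.2 and 7403.5 in the controls, whereas both Alas1 probe sets overlap between the groups.

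Among the cytosolic enzymes, Alad, which joins molecules of aminolevulinate into porphobilinogen, the unit of the ring, had signals of 2316.4 and 2059.8 in 13del-tg, against 4268.0 and 4814.4 in the controls at its brighter probe set. Here the groups stood apart by more than either group's spread, and the shared array, at 1582.8, lay below both. The difference was -1.05 (SE 0.20, 95% interval -1.50 to -0.60), with an unadjusted p of 0.0007 and an adjusted p of 0.347 (limma). The dimmer Alad probe set had 101.9 and 84.6 in 13del-tg, against 199.6 and 225.0 in the controls, and nearly the same difference, -1.07, but its shared array value of 157.6 lay between the groups. The Alad probe sets therefore placed the shared array differently.

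Uros encodes the synthase that closes the ring. Its brighter probe set had signals of 384.4 and 463.3 in 13del-tg, against 642.0 and 796.6 in the controls, and 655.3 on the shared array. Both 13del-tg arrays were below both controls, by 0.74 on the log2 scale (difference -0.74, SE 0.26; limma adjusted p = 0.880). At the dimmer probe set the difference was -0.89 (SE 0.46), again without overlap.

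Urod, which trims the side chains of the ring, had the smallest difference of the enzymes after the synthase step. At its brightest probe set (1443849_x_at) the signals were 3285.8 and 7071.8 in 13del-tg, against 5717.8 and 6473.1 in the controls, and 4908.6 on the shared array. The 13del-tg arrays lay on either side of the controls, and the difference of -0.33 (SE 0.33, 95% interval -1.10 to 0.43; limma adjusted p = 0.900) turned to 0.22 without 13del-tg 2. The probe set 1417206_at had 1238.5 and 1658.1 in 13del-tg, against 1688.8 and 1981.8 in the controls, with a difference of -0.35 (SE 0.23; limma adjusted p = 0.882).

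Cpox, a mitochondrial oxidase that follows Urod, had 3 probe sets. The brightest had 263.9 and 163.4 in 13del-tg, against 307.9 and 485.9 in the controls and 443.6 on the shared array, a difference of -0.85 (SE 0.37). The 13del-tg arrays were the lower ones, by little in the case of 13del-tg 2. The next, 1422492_at, had 168.0 and 124.8 in 13del-tg, against 416.6 and 612.4 in the controls and 301.8 on the shared array. It had the most negative difference of all 19 probe sets, -1.70 (SE 0.33, 95% interval -2.47 to -0.92; unadjusted p 0.0010, limma adjusted p = 0.440). The remaining one was too dim to be tested, at 53.5 and 29.8 in 13del-tg, against 63.4 and 78.5 in the controls, with a difference of -0.62. All probe sets of Cpox were thus lower in both 13del-tg arrays, but by unequal amounts.

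Ppox, which oxidises the ring to protoporphyrin, had signals of 303.3 and 247.3 in 13del-tg, against 457.8 and 586.0 in the controls, and 573.1 on the shared array. Neither 13del-tg array reached the lower control, and the difference was -0.88 (SE 0.29; limma unadjusted p 0.0161). Its second probe set overlapped between the groups, with a difference of -0.63 (SE 0.50), and the remaining one was too dim to be tested (difference -0.61).

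Fech, the ferrochelatase that inserts iron into protoporphyrin, was measured by 3 bright probe sets and by 1 with signals no higher than 10.1. The brightest had 3149.9 and 4056.3 in 13del-tg, against 5415.6 and 5778.4 in the controls, and 4153.9 on the shared array. All 3 bright probe sets were lower in both 13del-tg arrays, and they gave close differences of -0.64 (SE 0.20), -0.82 (SE 0.26) and -0.61 (SE 0.20). Each had a limma adjusted p of 0.880.

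**Figure D2:**
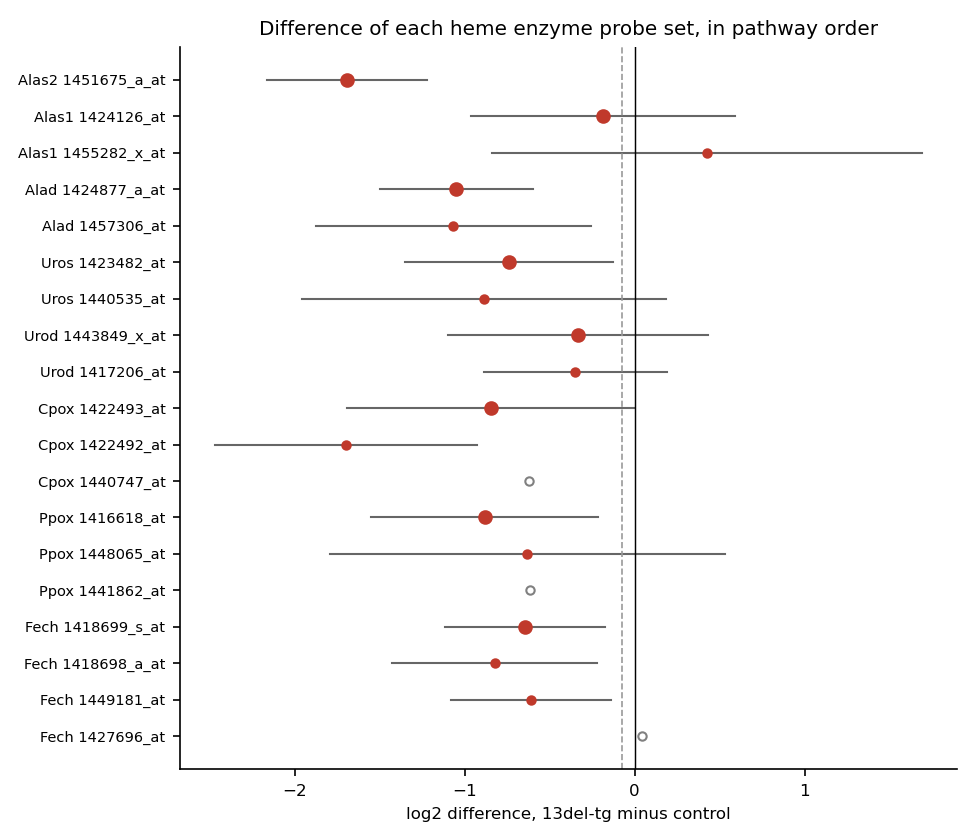
Log2 difference, 13del-tg minus control, of each heme enzyme probe set in pathway order, with its 95% interval from limma (n = 2 each); large points mark a gene's brightest probe set, open points those too dim to be tested, and the dashed line the median of all kept probe sets, -0.07. Alas2 lies at -1.69 and the second Cpox probe set at -1.70, while the intervals of both Alas1 and both Urod probe sets, the dimmer Uros one and the second Ppox one cross 0.

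Counted over the 16 kept probe sets of the members, 0 passed the adjusted threshold, as did 0.0370% of all kept probe sets (10 of 27022, of which 8 were lower in 13del-tg). At an unadjusted p under 0.05, 10 of the 16 were lower in 13del-tg and 0 were higher, against 3.72% lower over all kept probe sets. At 12 of the 16 the 13del-tg arrays were both lower than either control, as they were at 23.0% of all kept probe sets, and the other 4 were both Alas1 probe sets, Urod 1443849_x_at and Ppox 1448065_at. The median difference of the 16 was -0.78, beside -0.07 for all kept probe sets. With the 3 dim probe sets included, 17 of 19 differences were negative, against 59.5% of all probe sets (58.6% of the kept ones), and the median was -0.64. Taking the brightest probe set of each gene, 8 of 8 were negative and 6 of 8 were without overlap, the exceptions being Alas1 and Urod. Probe sets of 1 gene measure the same RNA, so these counts are not of independent measurements.

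At the heme enzyme probe sets the shared array did not side with 1 group, whereas at Col10a1 it stood with the controls. Of the 19 probe sets it lay between the groups or within their range at 13, below all 4 other arrays at 4 and above them at 2, both of Alas1. Relative to the control mean, the median over the 19 probe sets was -0.83 and -0.61 in the 13del-tg arrays, against -0.11 and 0.11 in the controls, and -0.38 on the shared array. With it counted as a control, as 13del-tg or under both labels, the Alas2 difference stayed negative. At Alas2 the shared array lay between the groups, so adding it could not turn that sign.

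Genes of the red cell lineage were set beside the enzymes. Of 27 listed erythroid genes 22 were measured and 21 kept. None passed the adjusted threshold. At an unadjusted p under 0.05, 19 were lower in 13del-tg (background 3.72%). The same number had both 13del-tg arrays below both controls (background 23.0%). The other 2 kept genes, Sptb and Ank1, named after their values were seen, overlapped between the groups and had positive differences of 0.25 and 0.10. The median difference of the 21 was -1.77, beside -0.79 for the brightest probe sets of the enzymes. Klf1, the erythroid transcription factor, had 150.9 and 325.3 in 13del-tg, against 1322.5 and 1327.3 in the controls and 824.6 on the shared array, a difference of -2.49 (SE 0.36; limma adjusted p = 0.132). Gfi1b, a repressor needed for red cell and platelet formation, differed by -2.07 (limma adjusted p = 0.164), and the red cell surface gene Ermap by -2.74 (adjusted p = 0.189). Epb42, which encodes a protein of the red cell membrane skeleton, had 15.3 and 36.8 in 13del-tg, against 245.8 and 200.3 in the controls. Its 13del-tg signals lay under the filter signal of 61.9, so no size is given for its difference. Gata1, named here after its values were seen, differed by -1.74.

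The erythroid genes and Alas2 ordered the 13del-tg arrays differently. Summed erythroid signals were 6645 and 11404 in 13del-tg, against 23361 and 26119 in the controls and 16926 on the shared array, and 20 of the 22 measured genes were lower in 13del-tg 2 than in 13del-tg 3. Alas2 was lower in 13del-tg 3, as were the brightest probe sets of 4 other members, so that 3 of 8 followed the erythroid order. The median of the erythroid genes relative to the control mean was -2.36 in 13del-tg 2 and -1.27 in 13del-tg 3, while Alas2 stood at -1.58 in 13del-tg 2 and -1.81 in 13del-tg 3. These arrays also differed in sex-linked genes, a list added after values had been seen. Xist, the RNA of the inactive X chromosome, had 57.6 and 15206.4 in 13del-tg, against 55.6 and 84.5 in the controls and 29.9 on the shared array. The Y-linked gene Eif2s3y was at 1652.3 and 11.1 in 13del-tg, against 1910.2 and 1687.4 in the controls and 1863.3 on the shared array. By these genes 13del-tg 3 had the signals of a female and the other arrays those of males. Sex was thus not balanced between the compared groups. Alas2 is X-linked, and without 13del-tg 3, the array with high Xist, its difference was -1.58. That value rests on 1 13del-tg array, and the part of sex in the Alas2 difference was not tested.

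The globins bind the heme that erythroid cells make, and their probe sets were mostly annotated with several symbols and so name no single gene. The brightest beta-globin one had 38803.7 and 44814.8 in 13del-tg, against 37218.5 and 47551.2 in the controls and 27372.1 on the shared array, and its groups overlapped. An alpha-globin probe set of similar brightness had 43882.1 and 45578.0 in 13del-tg, against 37005.2 and 44642.8 in the controls and 27168.0 on the shared array. A further bright one had 37610.9 and 43740.2 in 13del-tg, against 33180.2 and 39101.5 in the controls. The differences of these bright alpha-globin probe sets were positive, 0.14 and 0.17, with overlap. At a dimmer alpha-globin probe set the signals were 12333.9 and 21166.9 in 13del-tg, against 20464.1 and 25181.4 in the controls, again with overlap. Hbb-b2, named after its values were seen, was tested by a much dimmer probe set of its own. That had 327.3 and 487.5 in 13del-tg, against 1122.9 and 771.2 in the controls, without overlap and with a difference of -1.19 (SE 0.31; limma adjusted p = 0.704), but the kept probe sets of Hbb-b2 disagreed in sign. The bright globin signals are among the brightest signals on the arrays, and saturation was not tested.

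**Figure D3:**
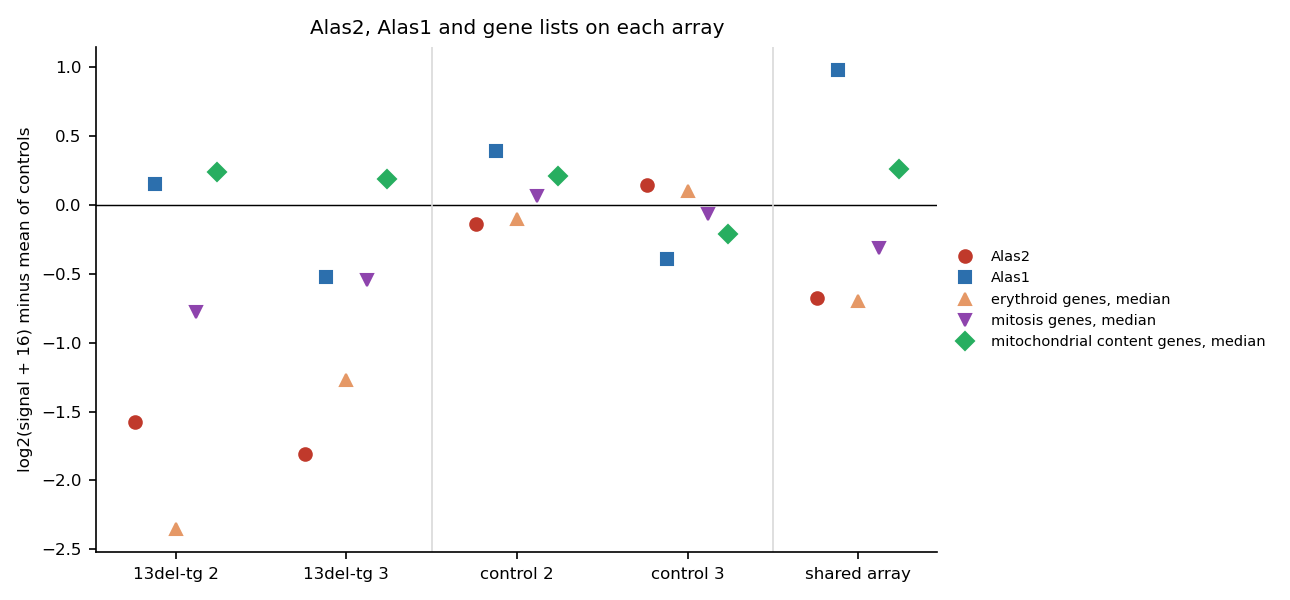
Log2(signal + 16) minus the mean of the controls on each array, for Alas2, Alas1 and the medians of the erythroid, mitosis and mitochondrial content lists (brightest probe set of each gene), with the 13del-tg arrays left of the controls and the shared array at the right. Alas2 stood at -1.58 and -1.81 in the 13del-tg arrays, and the erythroid median at -2.36 and -1.27.

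Of 12 kept genes of iron uptake and of delivery to the mitochondrion, 3 were lower in 13del-tg at an unadjusted p under 0.05. The share over all kept probe sets was 3.72%, and none of the 12 passed after adjustment. The median was -0.18, with 8 negative differences, a share near that of all kept probe sets, and centring each array on its median brought it to 0.00. Slc25a37, the mitochondrial iron importer of erythroid cells, had signals of 850.2 and 1005.0 in 13del-tg, against 2809.4 and 2615.8 in the controls and 1917.8 on the shared array, a difference of -1.54 (SE 0.21; limma adjusted p = 0.132). Abcb10, a mitochondrial transporter known to bind it, had 510.5 and 492.2 in 13del-tg, against 919.6 and 1150.0 in the controls, with a difference of -1.01 (SE 0.24). For the transferrin receptor gene Tfrc the difference was -0.70 (SE 0.21), and for Tmem14c, a carrier of the heme precursor, -0.32. The groups did not overlap for any of these 4 genes, which were named for having the smallest unadjusted p in the list. Of all 12, 5 had both 13del-tg arrays below both controls and 1 had them above. Over all kept probe sets 23.0% had them below. Slc25a28, the form of the iron importer made in most tissues, had 854.1 and 975.1 in 13del-tg, against 842.5 and 972.9 in the controls, a difference of 0.01. It was named after its values were seen, beside its erythroid paralogue, and the pair resembles Alas1 and Alas2 in that the erythroid form had the larger difference.

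None of 7 genes of heme export and breakdown had an unadjusted p under 0.05 (limma), and their median was -0.08, 0.10 with each array centred. The heme oxygenase gene Hmox1 differed by -0.18, the biliverdin reductase genes Blvrb and Blvra by -0.74 and 0.09, and the heme transporter gene Slc48a1 by -0.39. Likewise 0 of 6 genes of iron storage, export and sensing did so, with a median of -0.22, which was -0.04 with each array centred and -0.07 without 13del-tg 3. Among them the iron exporter gene Slc40a1 differed by -0.50, the ferritin receptor gene Ncoa4 by -0.37, the iron sensor gene Fbxl5 by -0.34 and Aco1, which encodes an iron regulatory protein, by 0.18. For 7 known regulators of Alas1 the count was also 0 and the median 0.13, which was 0.32 with each array centred and -0.15 with the shared array as a control. The heme receptor gene Nr1d1 differed by 0.87, Foxo1 by -0.42, and Clpx and Clpp, which encode the protease that acts on the synthase, by 0.37 and 0.13. For Aco1 and for Clpx the kept probe sets disagreed in sign, so their values hold for the brightest probe set only. The median over 10 genes of mitochondrial content was 0.20 (0.11 with quantile normalisation, 0.38 with each array centred). Of these genes 9 were positive, whereas 58.6% of all kept probe sets were negative, and none had an unadjusted p under 0.05. Without control 3, the array with low muscle signals, this median was 0.03, and without control 2 it was 0.37.

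Markers of other marrow cells and of dividing cells also had mostly negative differences, and none passed after adjustment. Over all kept probe sets 23.0% had both 13del-tg arrays below both controls. At an unadjusted p under 0.05 (limma), 3.72% were lower and 1.42% higher. Of 9 mitosis genes 9 had both 13del-tg arrays below both controls and 5 had an unadjusted p under 0.05, with a median of -0.60, among them Mki67 at -1.05, Aurka at -1.16, Plk1 at -0.93 and Ccna2 at -0.53. Of 6 B cell genes 4 had an unadjusted p under 0.05 on the lower side and the median was -1.28. Without 13del-tg 2 the B cell median was -0.66. The 6 megakaryocyte genes had a median of -0.63 and the 8 neutrophil genes one of -0.81, each with 1 gene at an unadjusted p under 0.05 and every difference negative. Without 13del-tg 2 the megakaryocyte median was -0.15 and the neutrophil median 0.17, so 1 array carried them, and the neutrophil groups overlapped for all 8 genes. Macrophage genes had a median of -0.09 (0.09 with each array centred, 0.01 without 13del-tg 2), with 5 of 8 negative, and osteoblast genes one of 0.15 (0.05 without control 2, 0.23 without 13del-tg 2), with 4 of 6 positive and 1 at an unadjusted p under 0.05. Their part in the values of the heme enzymes was not tested.

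**Figure D4:**
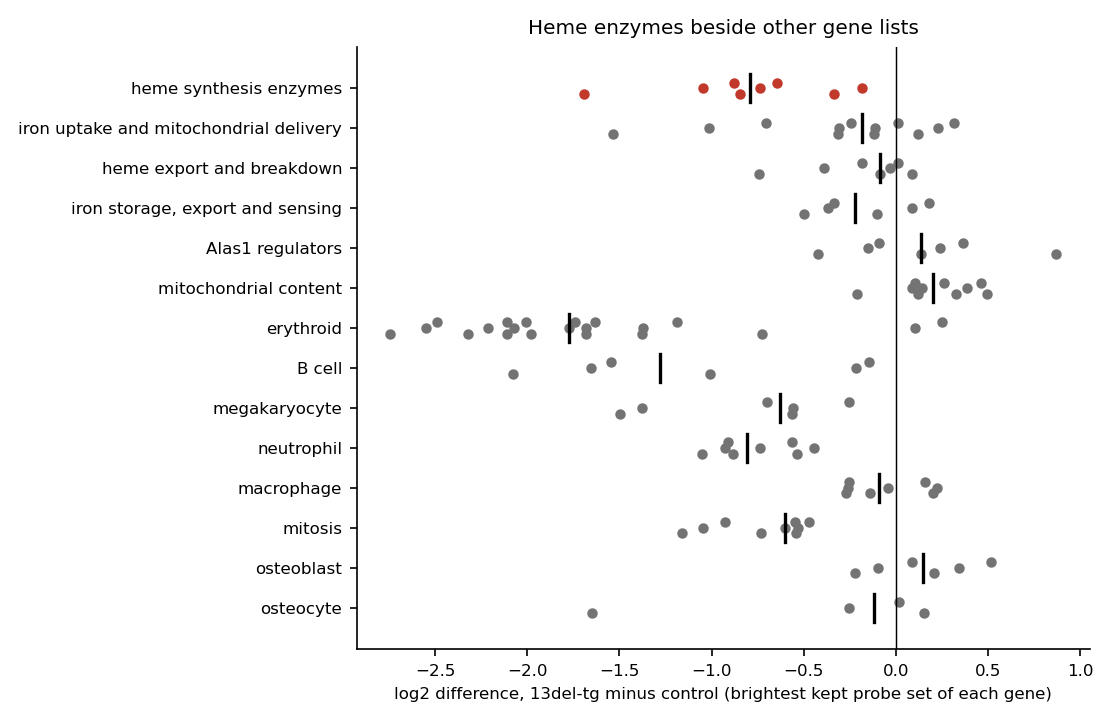
Log2 difference, 13del-tg minus control, of the brightest kept probe set of each gene in the heme enzyme list (red) and in the other lists (grey), with the median of each list as a bar. The heme enzymes have a median of -0.79, the erythroid genes -1.77 and the genes of mitochondrial content 0.20.

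The genes with the pattern most like Alas2 were sought by the root mean square distance between centred log2 values over the 5 distinct arrays, among 12333 named genes. The nearest was Fabp12, a fatty acid binding protein gene, at 0.10, but its 13del-tg signals of 33.5 and 30.4 lay under the filter signal of 61.9 and it passed through the other arrays. It was followed by the Wnt antagonist genes Dkk1 and Sost at 0.13 each. Sost, known as a gene of osteocytes, had 1263.8 and 859.2 in 13del-tg, against 3182.9 and 3431.1 in the controls and 1892.0 on the shared array, and Dkk1 had 1751.8 and 1326.1 in 13del-tg, against 4218.4 and 4405.7 in the controls and 2912.0 on the shared array. Then came Ly6d at 0.17, which was nearly as dim, with 63.4 and 53.2 in 13del-tg, Cecr2 and Itga4 at 0.18, Tmcc2 and the iron importer gene Slc25a37 at 0.21, and Kif5c and Cacna2d3 at 0.22. This order rests on 5 arrays. Sost does not stand for the osteocyte genes listed: of the 4 kept, 2 had positive differences, and their median was -0.12. Of the other members, Ppox was nearest to Alas2, at 0.40 and rank 150, and Alas1 the farthest, at 0.85 and rank 8538, beyond the median of 0.77 over all candidates. Cpox and Uros followed Ppox at 0.45 each, then Fech at 0.52, Alad at 0.55 and Urod at 0.75.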

How the data were processed

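RNA of 6 labelled samples was hybridised to Affymetrix arrays. The table deposited by the authors holds linear intensities made with MAS5, per the submitters' processing notes, which give no version. In the deposited table each array's trimmed mean was 500.003. Of 45101 probe sets, 64 control probe sets were left out. The platform annotation of the rest gives 1 symbol to 34945, several to 932 and none to 9160. No array scan values were used here, so detection and saturation are unknown.

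Values were taken as log2(signal + 16). Probe sets whose mean over the 5 distinct arrays was below the percentile 40 (a signal of 61.9) were left out of tests. limma 3.58.1 in R 4.3.3 (lmFit, eBayes with a trend) compared 2 with 2 arrays, with 2 residual degrees of freedom and a prior of 6.01. Whether replicates came from separate animals is given only by the word biological in the labels. Tests were tried on simulated data first. There the fit recovered 1.94% of changes of 1 on the log2 scale, 44.2% of those of 2 and 92.7% of those of 4. In these simulated data, with 200 changed probe sets of any brightness per draw, a change near 1 was thus nearly always missed at the threshold. No rate was computed for bright probe sets apart. The members and the gene lists were chosen with earlier results of these data known. Named genes were all probe sets of the members, in each other list up to 4 kept genes with the smallest unadjusted p (brightest kept probe set), the 10 genes nearest to Alas2, and Col10a1; exceptions are stated. Alternatives covered the pseudocount, filter, scaling, variance model, probe set choice, replicate block, shared array and each array left out.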

Additional observations from a re-analysis of the deposited data

Results flagged for a closer look

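The array deposited under both labels lies outside the comparison, and both Alas1 probe sets were higher on it than on any other array. It gave 2144.5 at the brighter one, against 1199.7 and 746.7 in 13del-tg and 1421.4 and 819.1 in the controls. At the dimmer one it gave 277.9, against 257.6 and 103.6 in 13del-tg and 190.0 and 72.2 in the controls. Groups of 2 arrays are too small for a test of single outlying samples.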

How the results depend on the processing

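With 2 arrays a group, the number of probe sets past the threshold moved by over 1.5 times in 12 of 17 alternatives. It was 10 as reported (8 lower and 2 higher), 2 with a pseudocount of 1, 1 with no filter, 2 with a filter at percentile 60, 2 with quantile normalisation (1 and 1), 24 with median centring (21 and 3), 1 without the variance trend, 20 with robust eBayes (18 and 2), 1 with the shared array as a control, 8 with it as 13del-tg, 7 with a pseudocount of 64, 8 with 1 probe set per gene, and 0 with it under both labels (263 lower and 31 higher at an unadjusted p under 0.05). Leaving out 1 array gave 7 to 242, with 242 without control 2.
The replicate block gave 668 (338 lower and 330 higher). The labels do not say that replicate numbers pair the mice, the deviations of same-numbered arrays correlated at 0.22 over probe sets, and the block leaves 1 residual degree of freedom. In it 4 member probe sets passed, among them Alas2 at -1.69 (adjusted p = 6.35e-12), Alad and the second Cpox probe set.
Member probe sets past the threshold numbered 0 as reported, 1 with robust eBayes, where Alas2 passed at -1.69, and 0 to 1 with 1 array left out. The Alas2 difference was negative in 17 of 17 alternatives, at -1.83 to -1.13 (-1.83 to -1.55 with 1 array left out). For Alas1 it was 0.20 when the shared array counted as 13del-tg, and -0.58 to 0.21 with 1 array left out. For Urod that range was -0.89 to 0.22. The difference of Alas2 minus that of Alas1 lay between -2.04 and -0.95, and the median over the members' probe sets between -0.91 and -0.43 (-0.91 to -0.58 with 1 array left out). The causes were not tested.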
